A study of Homo sapiens with 12 samples.

Results

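Oxidative phosphorylation is carried out by 5 protein complexes of the mitochondrial inner membrane, and most of their subunits are encoded in the nucleus. The nuclear genes described here were the rows of a gene count table whose symbol begins with NDUFA, NDUFB, NDUFC, NDUFS, NDUFV, UQCR, ATP5 or COX followed by a number from 4 to 8, together with SDHA, SDHB, SDHC, SDHD and CYC1. The rule gave 92 of 13820 rows. Of these, 75 are subunit genes: 36 of complex I, 4 of complex II, 8 of complex III, 12 of complex IV and 15 of complex V. NDUFA4 was counted with complex IV, of which its product is a subunit. A further 7 rows are the complex I assembly factors NDUFAF1 to NDUFAF7. The remaining 10 rows are the relatives NDUFA4L2, ATP5S and ATP5SL and 7 copies or antisense transcripts. Of the 92 rows, 90 passed the low-count filter and were tested, and NDUFA4L2 and ATP5G1P4 did not pass it.

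The data are 12 libraries of the established cell line Z-138, which derives from a mantle cell lymphoma. All cells, the controls included, received doxycycline, and the labels do not state its role. The 4 groups of 3 replicates were cells with an shRNA against SMARCA4 in DMSO, cells with a control shRNA in DMSO, cells with the SMARCA4 shRNA under 3 µM ibrutinib plus 3 µM venetoclax, and cells with the control shRNA under the same drugs. SMARCA4 (BRG1) is the motor subunit of SWI/SNF chromatin remodellers. Ibrutinib blocks BTK, a kinase of B cell receptor signalling, and venetoclax blocks BCL2, which keeps cells from apoptosis. The labels name no shRNA sequence or clone, and nothing in them tells if the 3 replicates of a group came from different cultures. The p-values thus rest on variation among the libraries at hand, which may be technical. The column used as control drug replicate 1 names no treatment and was assigned because every other column name fits another sample; without it 25 oxidative phosphorylation genes were lower and 2 higher in knockdown cells under drug, against 26 and 3 with it.

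As background, complex I takes electrons from NADH, complex II takes them from succinate within the citric acid cycle, and both pass them by coenzyme Q to complex III. Complex III hands them by cytochrome c to complex IV, which reduces oxygen, and complex V, the ATP synthase, uses the proton gradient that complexes I, III and IV build. Mitochondrial DNA encodes some core subunits of complexes I, IV and V and cytochrome b of complex III, and the nuclear subunits are imported and assembled with them. Promoters of nuclear subunit genes are known for binding sites of the transcription factors NRF1, ETS family members such as GABPA (NRF2), and YY1.

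The promoters are shown for ATP5I and NDUFA9, the subunit genes with the smallest adjusted p in complexes V and I among those that fell after knockdown, for NDUFC1, which rose in both knockdown comparisons, and for ATP5G1 and ATP5G2, which encode the same mature protein and had changes of opposite sign. Each sequence runs from 250 bases before the transcription start to 50 bases after it, 5′ to 3′ on the strand of the gene, from RefSeq with build GRCh38.p14. Capitals mark matches to the NRF1 motif GCGCANGCG, the ETS motif CCGGAAG or the YY1 motif AAGATGGC on either strand.
ATP5I (ATP5ME), chr4:674227-674526, minus strand: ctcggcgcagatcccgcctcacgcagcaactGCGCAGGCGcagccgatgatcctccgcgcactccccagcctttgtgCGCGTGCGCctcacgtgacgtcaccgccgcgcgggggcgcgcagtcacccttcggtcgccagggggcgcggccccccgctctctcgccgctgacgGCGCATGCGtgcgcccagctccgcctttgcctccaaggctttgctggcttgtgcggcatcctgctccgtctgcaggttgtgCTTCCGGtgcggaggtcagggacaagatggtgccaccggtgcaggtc
NDUFA9, chr12:4648864-4649163, plus strand: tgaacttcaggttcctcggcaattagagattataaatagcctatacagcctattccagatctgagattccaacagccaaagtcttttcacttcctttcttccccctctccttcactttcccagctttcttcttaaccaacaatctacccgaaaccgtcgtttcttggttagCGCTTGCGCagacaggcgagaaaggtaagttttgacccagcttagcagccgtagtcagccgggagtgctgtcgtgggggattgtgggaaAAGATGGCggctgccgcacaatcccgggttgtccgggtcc
NDUFC1, chr4:139302428-139302727, minus strand: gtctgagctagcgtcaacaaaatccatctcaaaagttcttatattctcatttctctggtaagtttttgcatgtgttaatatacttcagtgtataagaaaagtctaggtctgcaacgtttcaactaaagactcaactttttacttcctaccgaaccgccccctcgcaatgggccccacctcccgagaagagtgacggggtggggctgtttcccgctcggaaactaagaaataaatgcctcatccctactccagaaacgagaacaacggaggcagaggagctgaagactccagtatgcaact
ATP5G1 (ATP5MC1), chr17:48892537-48892836, plus strand: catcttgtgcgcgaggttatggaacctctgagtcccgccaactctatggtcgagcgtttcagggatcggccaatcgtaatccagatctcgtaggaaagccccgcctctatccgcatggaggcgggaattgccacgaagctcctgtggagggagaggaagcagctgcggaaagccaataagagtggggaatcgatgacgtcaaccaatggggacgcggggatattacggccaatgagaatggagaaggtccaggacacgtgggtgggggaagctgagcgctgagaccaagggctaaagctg
ATP5G2 (ATP5MC2), chr12:53675370-53675669, minus strand: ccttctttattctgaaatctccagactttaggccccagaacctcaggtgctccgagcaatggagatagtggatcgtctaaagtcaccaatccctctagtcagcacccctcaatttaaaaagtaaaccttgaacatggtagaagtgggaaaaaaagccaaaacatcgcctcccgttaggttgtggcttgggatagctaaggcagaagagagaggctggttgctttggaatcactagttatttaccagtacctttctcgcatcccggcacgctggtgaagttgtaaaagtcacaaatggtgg

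The ATP5I window held 3 matches to the NRF1 letters and 1 to the ETS letters, and the NDUFA9 window held 1 match to the NRF1 letters and 1 to the YY1 letters just after the start. The windows of NDUFC1, ATP5G1 and ATP5G2 held no match to these letters. Promoters were matched by identifier and symbol for 61 of the 75 subunit genes. At least 1 of the 3 motifs was present in 60.7% of them, against 24.7% of the 15843 promoters of protein-coding genes. The share with the NRF1 letters was 29.5% of subunit genes, against 10.4% of all promoters. For the ETS letters the shares were 27.9% and 13.8%, and for the YY1 letters 19.7% and 3.88%. Within the subunit genes, any of the 3 motifs was present in 60% of the 30 genes that fell in either knockdown comparison and in 61.3% of the 31 that did not. Taken singly, the NRF1 letters were in 26.7% of the genes that fell and 32.3% of the others, the ETS letters in 33.3% and 22.6%, and the YY1 letters in 13.3% and 25.8%. The 3 motifs overlapped each other in 0 of the 61 subunit promoters. These are counts of letters in a fixed window and carry no test.

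SMARCA4 itself had 177, 174 and 159 CPM (library-scaled counts, put on a common scale with edgeR's TMM factors) in the knockdown DMSO libraries, against 577, 599 and 555 CPM in the control DMSO libraries. Its log2 fold change was -1.77 (standard error, SE, 0.06, adjusted p = 1.99e-21) in DMSO and -1.80 (SE 0.06, adjusted p = 1.96e-21) under drug. Total counts ranged between 7279503 and 22528537 per library, with the next deepest after the deepest knockdown DMSO library at 10151679. The mantle cell lymphoma genes CCND1 and SOX11 summed to between 3915 and 5235 CPM in every library. Of 6 B cell markers, 5 had a row and CD22 had none. They summed to between 243 and 251 CPM in knockdown DMSO libraries against 495 to 526 CPM in control DMSO libraries, and to between 263 and 278 CPM in knockdown libraries against 542 to 604 CPM in control libraries under drug. Of 7 T and NK cell markers 3 had a row, at between 1.75 and 3.54 CPM in sum in knockdown libraries and between 17.5 and 21.4 CPM in control libraries. Of 6 fibroblast and epithelial markers COL1A1 alone had a row, at between 14.2 and 25.99 CPM, and of 5 monocyte and macrophage markers 0 had a row. Whether the B cell marker difference has a part in the results below was not tested. Ribosomal RNA took 10.5% ± 0.529 of counts in knockdown and 9.15% ± 0.309 in control DMSO libraries, and 8.36% ± 1.01 in knockdown and 10.6% ± 0.331 in control libraries under drug (SD, n = 3 each).

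After SMARCA4 knockdown in DMSO, some subunit genes fell, each by less than 2-fold. Each of the 5 complexes held at least 1 of them, with 1 of 4 in complex II and 3 of 8 in complex III. Of the 90 genes tested, 31 fell and 3 rose (edgeR's quasi-likelihood test, Benjamini-Hochberg adjusted p under 0.05 over 12602 genes), so 34.4% fell, where 16.2% of all genes tested fell and 15.1% rose. The median log2 fold change over the 90 was -0.12, against 0.00 over all genes. Nearly all the calls came from genes with a mean of at least 50 CPM, where calls are made more often: 30 of 64 such members fell (46.9%), against 28.2% of all 3117 genes at that level. Under 50 CPM, 1 of 26 members fell, where 12.3% of all genes at that level did. Under ibrutinib plus venetoclax, 26 of 90 members were lower in knockdown than in control cells (28.9%) and 3 were higher, where 16.3% of all genes were lower and 14.8% higher. At 50 CPM or more, 26 of 64 were lower (40.6%), against 27.6% of all genes at that level. Under 50 CPM, 0 of 26 were lower with edgeR (3 at an unadjusted p under 0.05), where 12.7% of all genes at that level were. The median over all 90 members was -0.11, against 0.00 over all genes. The count of 31 was 20 without control DMSO replicate 3, and the count of 3 that rose was 0 without control DMSO replicate 2 and 1 without knockdown DMSO replicate 3. The comparison under drug depended on scaling: with library totals in place of TMM factors, 13 members were lower and 11 higher, and the median of all genes shifted to 0.08. Without control drug replicate 3, 20 members were lower and 5 higher in that comparison. In bulk RNA, fewer cells of a kind and less RNA per cell cannot be told apart.

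**Figure D1:**
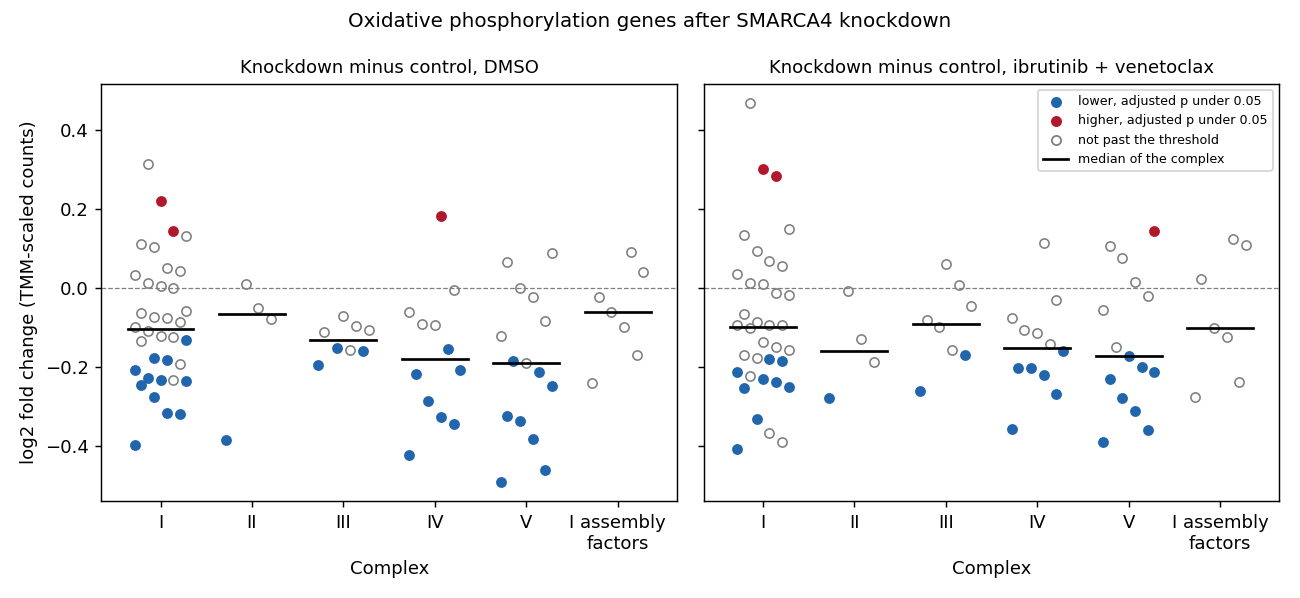
Log2 fold change of each oxidative phosphorylation gene (knockdown minus control, y axis) by complex (x axis), in DMSO on the left and under ibrutinib plus venetoclax on the right. Filled points passed an adjusted p of 0.05 and bars are medians. The medians of all 5 complexes and of the complex I assembly factors lie below 0 in both panels. Most called genes are in complexes I, IV and V, which also hold most of the subunit genes.

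Complex I, the NADH dehydrogenase, had 12 of 36 subunit genes lower and 2 higher in DMSO, and 9 lower and 2 higher under drug. Among its 27 genes of at least 50 CPM, 40.7% were lower in DMSO and 33.3% under drug, against the 28.2% and 27.6% of all genes at that level. Those that fell changed by between -0.40 and -0.13 on the log2 scale in DMSO. NDUFA9, an accessory subunit of the matrix arm, had 169, 160 and 155 CPM in knockdown DMSO libraries, against 211, 208 and 218 CPM in control DMSO libraries. Under drug it had 156, 159 and 159 CPM in knockdown cells, against 201, 210.1 and 217 CPM in control cells. The libraries of the 2 genotypes did not overlap under either treatment, and the log2 fold changes were -0.40 (SE 0.05, adjusted p = 6.32e-07) in DMSO and -0.41 (SE 0.05, adjusted p = 6.49e-07) under drug. NDUFS6, a zinc-binding accessory subunit that joins late in assembly, had 199.7, 190.5 and 179.6 CPM in knockdown DMSO libraries, against 241, 238 and 230.1 CPM in control DMSO libraries. It had 189, 193 and 197 CPM in knockdown drug libraries, against 234, 234 and 262 CPM in control drug libraries. Its log2 fold changes were -0.32 (SE 0.06, adjusted p = 4.09e-05) in DMSO and -0.33 (SE 0.06, adjusted p = 2.85e-05) under drug, again with no overlap between genotypes.

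Of all genes tested, 16.2% fell in DMSO and 16.3% were lower under drug, and of those of at least 50 CPM 28.2% and 27.6%. Of the 7 core subunits of complex I, which carry the flavin and the iron-sulfur clusters, 2 (28.6%) fell in each knockdown comparison, near the share of all genes of at least 50 CPM. NDUFS3, a core subunit of the matrix arm, fell in both, by 0.21 on the log2 scale in each. NDUFS1, the largest core subunit encoded in the nucleus, had an adjusted p of 0.0183 in DMSO (log2 fold change -0.24, SE 0.08) and 0.243 under drug (-0.14, SE 0.09). NDUFV1, which binds the flavin, was the other way about, at -0.11 (SE 0.06, adjusted p = 0.141) in DMSO and -0.23 (SE 0.06, adjusted p = 0.00213) under drug. None of these differences between treatments passed the interaction test described below. Of the 29 accessory subunits 10 (34.5%) fell and 2 rose in DMSO, and 7 (24.1%) were lower and 2 higher under drug. Among them, NDUFB2 of the membrane arm had 181, 177 and 174 CPM in knockdown DMSO libraries, against 209, 219 and 216 CPM in control DMSO libraries (log2 fold change -0.28, SE 0.05, adjusted p = 0.000164). under drug NDUFB2 passed (log2 fold change -0.18, adjusted p = 0.0107), and its adjusted p was 0.0768 without knockdown drug replicate 1, 0.0922 without control drug replicate 3 and 0.152 with library totals.

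A few complex I subunits went against the rest. NDUFC1, a small membrane-arm subunit, had 66.8, 67.2 and 78.7 CPM in knockdown DMSO libraries, against 62.5, 59.8 and 62.1 CPM in control DMSO libraries. Under drug it had 76.9, 79.0 and 66.6 CPM in knockdown cells, against 64.6, 59.3 and 56.6 CPM in control cells. It was higher in every knockdown library than in any control library of the same treatment, by 0.22 (SE 0.08, adjusted p = 0.0271) in DMSO and 0.30 (SE 0.08, adjusted p = 0.00373) under drug. The call in DMSO was lost without knockdown DMSO replicate 3 (adjusted p = 0.258) and without control DMSO replicate 2 (adjusted p = 0.0975), and with the DESeq2 Wald test it was 0.0507. NDUFA6, a LYR-motif subunit of the matrix arm, had 145, 135 and 146 CPM in knockdown drug libraries, against 108, 112 and 129.9 CPM in control drug libraries, and its log2 fold change there was 0.28 (SE 0.06, adjusted p = 0.00095). In DMSO its log2 fold change was 0.13 (SE 0.06, adjusted p = 0.119). NDUFS5, a membrane-arm subunit on the intermembrane side, was higher in DMSO by 0.14 (SE 0.05, adjusted p = 0.0387), a call that was lost without knockdown DMSO replicate 1 or 2, control DMSO replicate 2 or control drug replicate 1 or 2 (adjusted p between 0.0508 and 0.19).

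The 7 complex I assembly factors of the NDUFAF family, which help to build the complex but are not part of it, gave 0 calls in either knockdown comparison with edgeR. All but NDUFAF3 averaged under 50 CPM, where 12.3% of all genes fell in DMSO and 12.7% were lower under drug. Whether 0 of 7 differs from those shares was not tested. Their log2 fold changes lay between -0.24 and 0.09 in DMSO and between -0.28 and 0.12 under drug, with 1 unadjusted p under 0.05 in each. The nearest to the threshold was NDUFAF4, at 32.5, 30.8 and 38.2 CPM in knockdown DMSO libraries against 39.5, 41.1 and 41.4 CPM in control DMSO libraries (adjusted p = 0.0513).

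**Figure D2:**
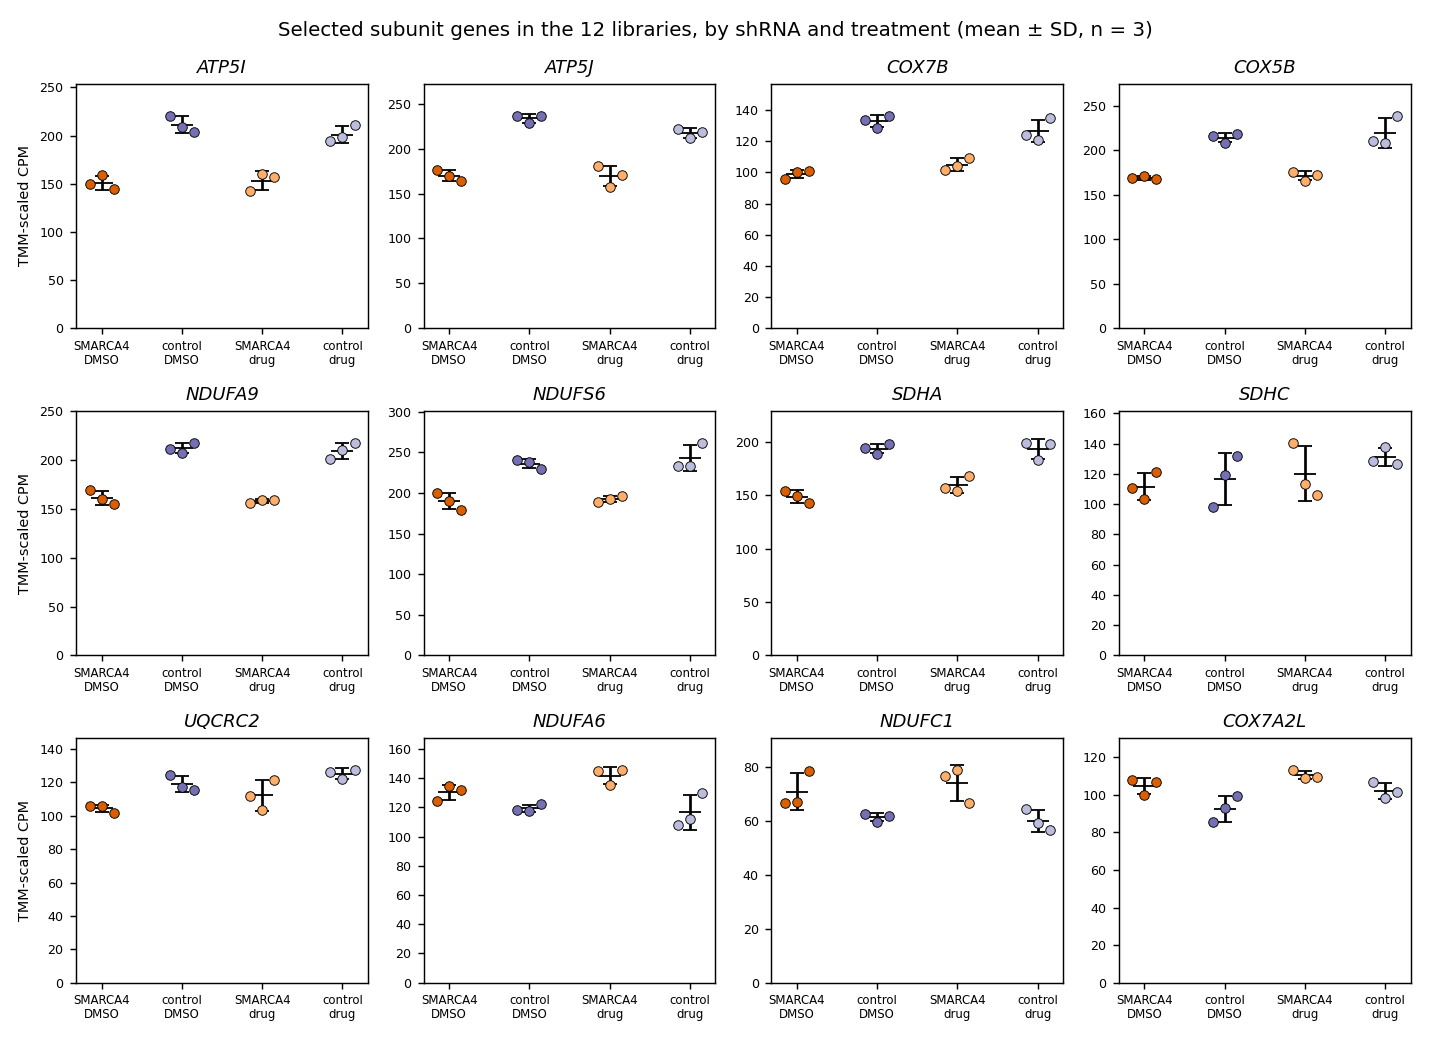
TMM-scaled CPM (y axis) of 12 subunit genes in every library, grouped by shRNA and treatment (x axis), with the mean and SD of 3 libraries. ATP5I, ATP5J, COX7B, COX5B, NDUFA9, NDUFS6 and SDHA sit lower in SMARCA4 shRNA than in control libraries with no overlap, NDUFC1 sits higher, and the SDHC libraries overlap.

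Complex II, the succinate dehydrogenase, links the citric acid cycle to the respiratory chain and is encoded wholly in the nucleus. SDHA alone passed the test, 1 of 4 genes (25%) in each knockdown comparison and 1 of the 2 of at least 50 CPM. Of all genes at that level, 28.2% were lower in DMSO and 27.6% under drug, so 1 call says little about the complex. SDHA, the flavoprotein subunit, had 154, 149 and 143 CPM in knockdown DMSO libraries, against 194, 189 and 198 CPM in control DMSO libraries. Under drug it had 157, 154 and 168 CPM in knockdown cells, against 199, 183 and 198 CPM in control cells. The genotypes did not overlap, and SDHA fell by 0.38 (SE 0.06, adjusted p = 2.3e-06) in DMSO and 0.28 (SE 0.06, adjusted p = 0.000292) under drug on the log2 scale. SDHB, the iron-sulfur subunit, had 36.8, 34.0 and 37.1 CPM in knockdown DMSO libraries, against 39.2, 35.6 and 39.5 CPM in control DMSO libraries. SDHC, a membrane anchor, had 110.4, 103 and 121 CPM in knockdown DMSO libraries, against 97.9, 119 and 132 CPM in control DMSO libraries. SDHD, the other anchor, was counted at between 3.29 and 7.87 CPM in all libraries. Adjusted p-values of SDHB, SDHC and SDHD were 0.526, 0.704 and 0.981 in DMSO and 0.12, 0.286 and 0.985 under drug. Without knockdown drug replicate 1, SDHC passed under drug (log2 fold change -0.25, adjusted p = 0.0378), and without control drug replicate 2, SDHB did (-0.26, adjusted p = 0.0435).

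Complex III, which moves electrons from coenzyme Q to cytochrome c, had log2 fold changes below 0 for all 8 genes in DMSO, between -0.19 and -0.07, and for 6 of 8 under drug. All 8 were of at least 50 CPM, and 37.5% passed as lower in DMSO and 25% under drug, where 28.2% and 27.6% of all genes at that level did. In DMSO 3 fell: UQCRC2, a core protein of the matrix side, UQCRH, the hinge protein by which cytochrome c1 meets cytochrome c, and UQCRQ, a small subunit. UQCRC2 had 106, 106 and 102 CPM in knockdown DMSO libraries, against 125, 118 and 116 CPM in control DMSO libraries (log2 fold change -0.19, SE 0.06, adjusted p = 0.0142). These calls were close to the threshold. UQCRC2 lost it without knockdown DMSO replicate 3 or control DMSO replicate 1 (adjusted p = 0.0893 and 0.121). UQCRH lost it without knockdown DMSO replicate 2, control DMSO replicate 1 or control DMSO replicate 3 (adjusted p between 0.0594 and 0.128). UQCRQ lost it without knockdown DMSO replicate 2 or 3, control DMSO replicate 1 or 3, or knockdown drug replicate 1 (adjusted p between 0.0618 and 0.271), and also with library totals (0.0696), no low-count filter (0.0556) and ribosomal RNA rows taken out (0.052).

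Under drug, UQCR10 and CYC1 were the complex III genes past the threshold. UQCR10, a small subunit beside cytochrome c1, had 76.1, 79.4 and 70.6 CPM in knockdown drug libraries, against 94.7, 84.3 and 91.6 CPM in control drug libraries (log2 fold change -0.26, SE 0.07, adjusted p = 0.00389). In DMSO UQCR10 had 78.2, 73.3 and 79.6 CPM in knockdown cells, against 85.2, 81.2 and 92.1 CPM in control cells (adjusted p = 0.0734). CYC1, the cytochrome c1 gene, had 125, 123 and 122 CPM in knockdown drug libraries, against 142, 127 and 147 CPM in control drug libraries. Its adjusted p was 0.0409 (log2 fold change -0.17, SE 0.06), and it lay above 0.05 when any of 9 libraries was left out, all but knockdown DMSO replicate 1, control DMSO replicate 2 and control drug replicate 2 (adjusted p between 0.0513 and 0.217). The CYC1 call was also lost with library totals (adjusted p = 0.302), no low-count filter (0.0629), ribosomal RNA rows taken out (0.0516), only the compared groups fitted (0.0619) and the DESeq2 Wald test (0.0609). UQCRFS1, the Rieske iron-sulfur protein, UQCRB and UQCRC1 passed in neither comparison.

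Complex IV, cytochrome c oxidase, had 7 of 12 nuclear subunit genes lower and 1 higher in DMSO, and 6 lower and 0 higher under drug, where 1 gene had a log2 fold change above 0 and 0 of 12 had an unadjusted p under 0.05 in that direction. All 12 were of at least 50 CPM, and 58.3% were lower in DMSO and 50% under drug. Of all genes at that level, 28.2% and 27.6% were lower. COX7B, a small membrane subunit, had 96.0, 100.4 and 101 CPM in knockdown DMSO libraries, against 134, 129 and 136 CPM in control DMSO libraries. Under drug COX7B had 101, 104 and 109 CPM in knockdown cells, against 124, 121 and 135 CPM in control cells. Knockdown libraries lay below control libraries throughout, with log2 fold changes of -0.42 (SE 0.06, adjusted p = 9.78e-07) in DMSO and -0.27 (SE 0.06, adjusted p = 0.000784) under drug. COX5B, a zinc-binding subunit on the matrix side, had 168, 171 and 167 CPM in knockdown DMSO libraries, against 217, 208 and 218 CPM in control DMSO libraries. It had 176, 166 and 172 CPM in knockdown drug libraries, against 211, 208 and 239 CPM in control drug libraries. The log2 fold changes of COX5B were -0.34 (SE 0.06, adjusted p = 1.38e-05) in DMSO and -0.36 (SE 0.06, adjusted p = 1.02e-05) under drug.

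NDUFA4, first described with complex I and now placed in complex IV, had 287, 287 and 284 CPM in knockdown DMSO libraries, against 354, 334 and 386 CPM in control DMSO libraries. Its log2 fold change was -0.33 (SE 0.05, adjusted p = 1.55e-05) in DMSO and -0.20 (SE 0.05, adjusted p = 0.00425) under drug. COX4I1, the subunit that binds ATP and is among the first to join the core, had 400.2, 395 and 369.7 CPM in knockdown DMSO libraries, against 468, 472 and 477 CPM in control DMSO libraries. COX4I1 fell by 0.28 (SE 0.06, adjusted p = 0.000135) in DMSO and by 0.20 (SE 0.06, adjusted p = 0.00499) under drug on the log2 scale. With library totals in the comparison under drug, the adjusted p was 0.0887 for NDUFA4, 0.0889 for COX4I1 and 0.0903 for COX6B1. COX6B1, on the intermembrane side, fell by 0.22 in each comparison (adjusted p = 0.00739 in DMSO and 0.00685 under drug). It did not pass in DMSO without knockdown DMSO replicate 3 (0.0751) or control DMSO replicate 3 (0.0865), nor under drug without knockdown drug replicate 2 (0.0516) or control drug replicate 3 (0.072), each an adjusted p.

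Several complex IV subunits have tissue-specific forms, and the ubiquitous or liver forms were the ones with rows: COX4I1, COX6A1, COX6B1, COX7A2 and COX8A. COX6A1 (log2 fold change -0.09, SE 0.06) and COX7A2 (-0.01, SE 0.05) did not pass in DMSO, with adjusted p-values of 0.279 and 0.944. COX8A passed under drug alone, at -0.16 (SE 0.05, adjusted p = 0.0258), against -0.06 (SE 0.05, adjusted p = 0.432) in DMSO. That call was lost without knockdown drug replicate 2 or 3 or control drug replicate 3 (adjusted p between 0.0725 and 0.229), with library totals (0.289) and with only the compared groups fitted (0.058). COX7A2L, a COX7A relative known for joining complexes III and IV in supercomplexes, had 108, 99.9 and 107 CPM in knockdown DMSO libraries, against 85.5, 92.9 and 99.3 CPM in control DMSO libraries. It rose by 0.18 (SE 0.06, adjusted p = 0.0243) in DMSO, where every knockdown library lay above every control library. Without knockdown DMSO replicate 1 or 3 or control DMSO replicate 1 or 2, its adjusted p lay between 0.057 and 0.144. Under drug its log2 fold change was 0.11 (SE 0.06, adjusted p = 0.182), and with library totals 0.20 (adjusted p = 0.0191). NDUFA4L2, a relative of NDUFA4 known as a hypoxia-induced gene, had between 2 and 16 counts per library and was not tested.

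Complex V, the ATP synthase, held the largest falls among the subunit genes in DMSO. It had 8 of 15 genes lower and 0 higher in DMSO, where 3 of 15 had log2 fold changes above 0 and 0 of those had an unadjusted p under 0.05, and 8 lower and 1 higher under drug. Of its 14 genes of at least 50 CPM, 57.1% were lower in each comparison. Of all genes at that level, 28.2% were lower in DMSO and 27.6% under drug. ATP5I, subunit e, which takes part in dimerisation of the enzyme, had 149, 159 and 144 CPM in knockdown DMSO libraries, against 221, 209 and 204 CPM in control DMSO libraries. Under drug it had 142, 160.4 and 157 CPM in knockdown cells, against 194, 198 and 210.4 CPM in control cells. With no overlap between genotypes, ATP5I fell by 0.49 (SE 0.06, adjusted p = 6.17e-08) in DMSO, to 0.712 times the control level, and by 0.39 (SE 0.06, adjusted p = 5.27e-06) under drug, to 0.763 times. ATP5J, coupling factor 6 of the peripheral stalk, had 177, 169 and 164 CPM in knockdown DMSO libraries, against 236, 228 and 237 CPM in control DMSO libraries. It had 181, 158 and 170.3 CPM in knockdown drug libraries, against 222, 212 and 218 CPM in control drug libraries. The log2 fold changes of ATP5J were -0.46 (SE 0.06, adjusted p = 7.48e-08) in DMSO and -0.36 (SE 0.06, adjusted p = 7.88e-06) under drug.

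The 8 complex V genes that fell were the same in both comparisons, and they are spread over the enzyme. Beside ATP5I and ATP5J they were ATP5O (the OSCP subunit that caps the stalk) and ATP5F1 (subunit b) of the peripheral stalk, the catalytic subunit gene ATP5B, the central stalk gene ATP5E, and the membrane ring genes ATP5G1 and ATP5G3. ATP5O had 529, 552 and 522 CPM in knockdown DMSO libraries, against 682, 649.9 and 693 CPM in control DMSO libraries. Its log2 fold change was -0.34 (SE 0.05, adjusted p = 2.18e-06) in DMSO and -0.20 (SE 0.05, adjusted p = 0.00199) under drug, where it did not pass with library totals (adjusted p = 0.0567). ATP5B had 442, 409 and 424 CPM in knockdown DMSO libraries, against 524, 516 and 558 CPM in control DMSO libraries (log2 fold change -0.32, SE 0.06, adjusted p = 2.75e-05). ATP5A1, the gene of the alpha subunit that alternates with the beta subunit of ATP5B, had 101, 101 and 106 CPM in knockdown DMSO libraries, against 93.4, 94.4 and 106 CPM in control DMSO libraries. The ATP5A1 libraries overlapped and its log2 fold changes were 0.07 (SE 0.06, adjusted p = 0.454) in DMSO and 0.11 (SE 0.06, adjusted p = 0.221) under drug. ATP5C1, the gamma subunit gene of the central stalk, also passed in neither comparison.

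The c ring of ATP synthase is encoded by ATP5G1, ATP5G2 and ATP5G3, which differ in their import sequences and give the same mature protein. ATP5G3 had 511, 525 and 541 CPM in knockdown DMSO libraries, against 687, 667 and 700.3 CPM in control DMSO libraries (log2 fold change -0.38, SE 0.05, adjusted p = 3.35e-07). ATP5G1 had 883, 866 and 828 CPM in knockdown DMSO libraries, against 1041, 970.2 and 972 CPM in control DMSO libraries (log2 fold change -0.21, SE 0.05, adjusted p = 0.00217). Under drug the log2 fold changes were -0.31 (SE 0.05, adjusted p = 1.1e-05) for ATP5G3 and -0.28 (SE 0.05, adjusted p = 0.000125) for ATP5G1. ATP5G2 went the other way. It had 1485, 1408 and 1430 CPM in knockdown DMSO libraries, against 1396, 1301 and 1369 CPM in control DMSO libraries (log2 fold change 0.09, SE 0.05, adjusted p = 0.194). In knockdown drug libraries ATP5G2 had 1575, 1505 and 1512 CPM, against 1348, 1318 and 1492 CPM in control drug libraries (0.14, SE 0.05, adjusted p = 0.029). Knockdown libraries lay above control libraries under both treatments, but the call under drug was lost without knockdown drug replicate 1, control drug replicate 1 or control drug replicate 2 (adjusted p between 0.091 and 0.183) and with only the compared groups fitted (0.0745).

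The summed level of the 3 c-subunit genes was 2825 ± 45.9 CPM in knockdown and 3034 ± 93.3 CPM in control DMSO libraries, and 2916 ± 52.7 CPM in knockdown and 3081 ± 181 CPM in control libraries under drug (SD, n = 3 each). Within that sum, the share from ATP5G2 was 51.0% ± 0.637 in knockdown and 44.7% ± 0.372 in control DMSO libraries. Under drug it was 52.5% ± 0.436 in knockdown and 44.98% ± 0.372 in control libraries. The share of ATP5G3 was 18.6% ± 0.804 in knockdown and 22.6% ± 0.529 in control DMSO libraries. A share within a library does not depend on how libraries were scaled, and the 3 knockdown and 3 control libraries were separate for ATP5G2 under each treatment. The assay counts transcript 3′ ends, so no length enters these shares, but reads can map with unequal success to each gene. The size of a share is therefore less certain than its change between groups.

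**Figure D3:**
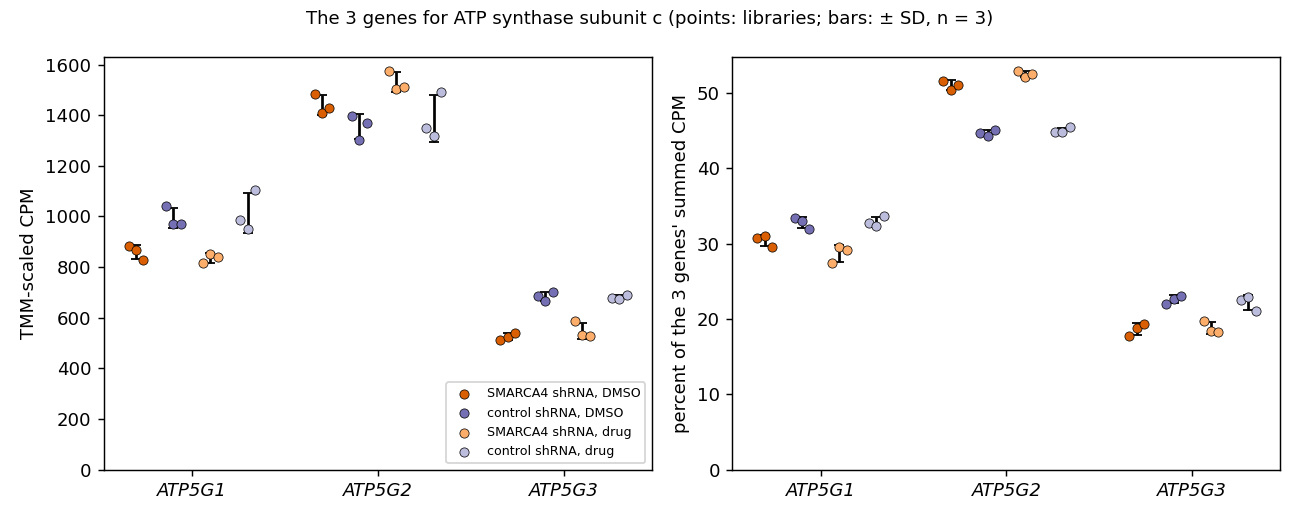
The 3 genes for the c subunit of ATP synthase (x axis), as TMM-scaled CPM on the left and as percent of their sum within each library on the right, with points for libraries and bars for the SD of 3 libraries. The ATP5G2 share lies between 50.3% and 52.9% in SMARCA4 shRNA libraries and between 44.3% and 45.4% in control libraries, while the shares of ATP5G1 and ATP5G3 are lower in SMARCA4 shRNA libraries.

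Levels were summed over the subunit genes of each complex that the symbol rule gave. In knockdown DMSO libraries the sums were 0.938 times those in control DMSO libraries for complex I and 0.853 for complex II. They were 0.913 for complex III, 0.889 for complex IV and 0.887 for complex V. Complex V summed to 5804, 5723 and 5683 CPM in knockdown DMSO libraries, against 6563, 6271 and 6568 CPM in control DMSO libraries. Complex IV summed to 3120, 3090 and 3089 CPM in knockdown DMSO libraries, against 3461, 3383 and 3613 CPM in control DMSO libraries. For every complex the 3 knockdown libraries lay below the 3 control libraries in DMSO. Under drug the ratios of knockdown to control were 0.946, 0.866, 0.955, 0.905 and 0.92 for complexes I to V, and the libraries overlapped for complex III alone. With library totals in place of TMM factors, the ratios under drug were 1.001 for complex I and 1.011 for complex III, 0.959 for complex IV and 0.974 for complex V. All 75 genes together summed to 15410 ± 222 CPM in knockdown and 17050 ± 409.9 CPM in control DMSO libraries (SD, n = 3 each). These sums are dominated by the most abundant genes and are given without a test.

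**Figure D4:**
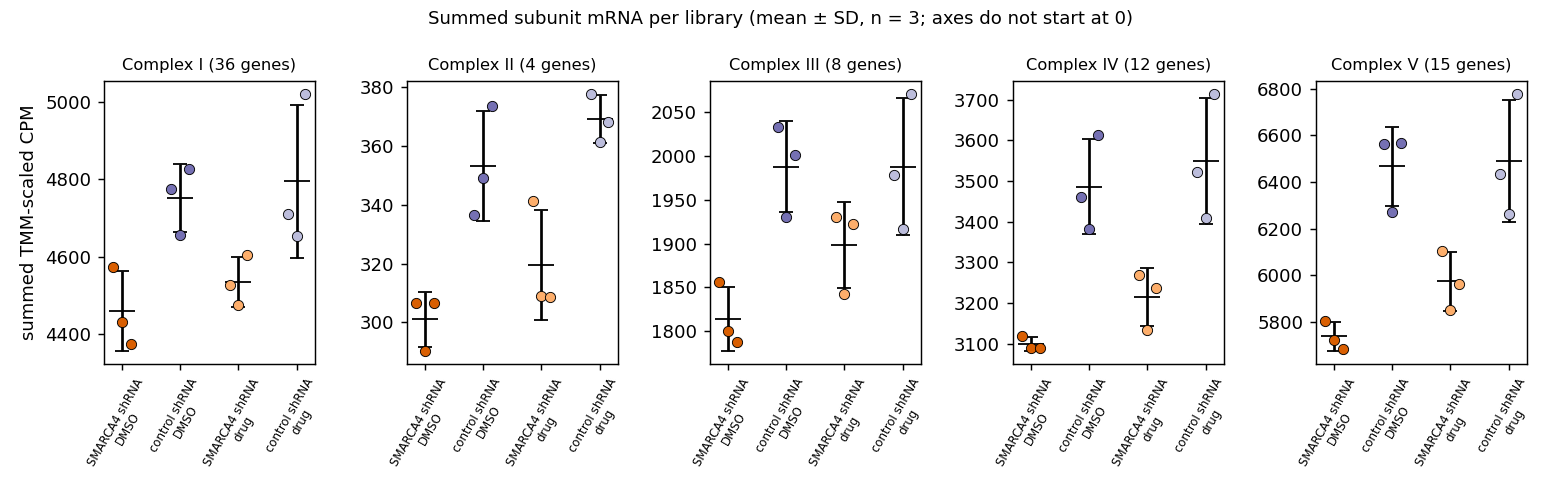
Summed TMM-scaled CPM (y axis, not starting at 0) of the subunit genes of each complex in every library, by shRNA and treatment (x axis), with the mean and SD of 3 libraries. In DMSO the SMARCA4 shRNA libraries lie below the control libraries for all 5 complexes, and under drug the same holds for all but complex III.

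The knockdown effect was estimated in DMSO and again under drug, with no library in common but in 1 fit with a shared estimate of the spread. The 2 comparisons are thus not fully independent. An effect of the shRNA or clone other than the loss of SMARCA4 could repeat in both and was not tested. Of the 31 genes lower in DMSO, 22 (71.0%) were also lower under drug, and these were 84.6% of the 26 lower under drug. NDUFC1 was the gene that rose in both. COX5A, COX7C, NDUFA12, NDUFA5, NDUFA8, NDUFS1, UQCRC2, UQCRH and UQCRQ passed in DMSO alone, and COX8A, CYC1, NDUFV1 and UQCR10 under drug alone. Over the 64 members of at least 50 CPM, the log2 fold changes of the 2 comparisons had Pearson's r = 0.887 and Spearman's rho = 0.881, with the same sign for 57. Over all 90, r was 0.556. These correlations are across genes, which are not independent replicates and share the libraries and scaling of each comparison. The same overlap and correlation were not computed over all genes tested. Whether either is particular to these members was thus not tested.

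**Figure D5:**
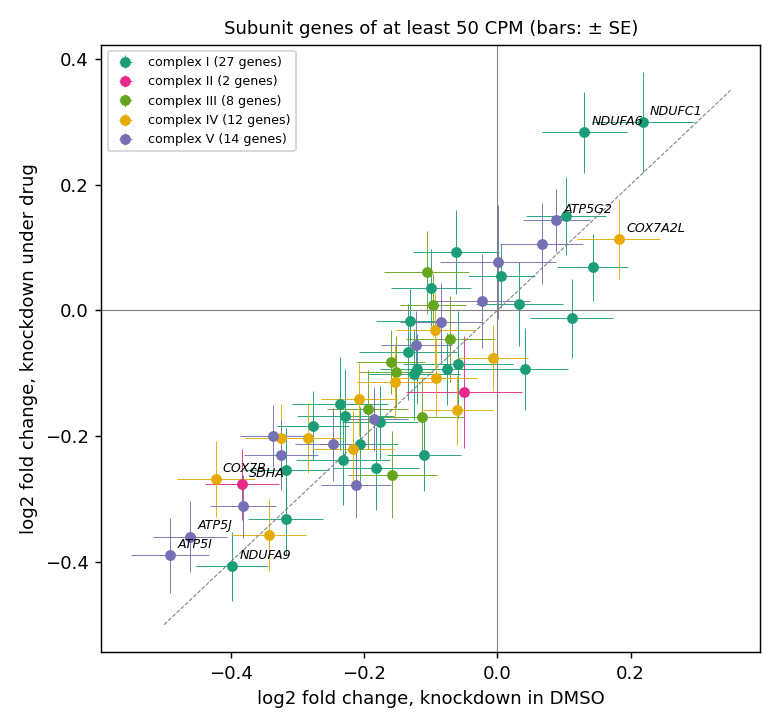
Log2 fold change of knockdown against control in DMSO (x axis) and under ibrutinib plus venetoclax (y axis) for subunit genes of at least 50 CPM, coloured by complex, with bars of 1 SE. Points follow the dashed line of equal change, with ATP5I, ATP5J and NDUFA9 at the lower left and NDUFC1 and NDUFA6 at the upper right.

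Ibrutinib plus venetoclax changed few genes of any kind at this threshold, 1.29% of those tested in control cells and 1.29% in knockdown cells, and 0 of the 90 members passed in either (edgeR). The unadjusted p was under 0.05 for 4 members in knockdown cells (4.44%, against 10.4% of all genes) and for 5 in control cells (5.56%, against 10.1% of all genes), and limma-voom and DESeq2 also called 0. The smallest adjusted p in control cells was that of NDUFS1, at 34.0, 37.5 and 38.7 CPM in control drug libraries, against 45.1, 40.5 and 42.1 CPM in control DMSO libraries (log2 fold change -0.22, SE 0.08, adjusted p = 0.32). In knockdown cells it was that of COX6C, a small complex IV subunit, at 541, 460.4 and 527 CPM in knockdown drug libraries, against 444, 445 and 475 CPM in knockdown DMSO libraries (log2 fold change 0.16, SE 0.06, adjusted p = 0.235). Without knockdown drug replicate 2, 1 member was higher in knockdown cells under drug. Medians over the members were 0.00 in control cells and 0.03 in knockdown cells. Of 64 members of at least 50 CPM, 48 had drug effects above 0 in knockdown cells and 32 in control cells. Summed levels under drug were 1.017, 1.061, 1.047, 1.037 and 1.041 times those in DMSO for complexes I to V in knockdown cells. There the libraries did not overlap for complexes II, IV and V. In control cells the ratios were 1.009, 1.045, 1, 1.018 and 1.004, with overlap for every complex. These sums carry no test. For members of at least 50 CPM, the 95% interval of the drug effect stayed within 1.2-fold in either direction for 62 of 64 in control cells and for 61 of 64 in knockdown cells.

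The interaction compares the drug effect of knockdown cells with that of control cells, as a difference. It called 0.0238% of all genes and 0 of the 90 members (edgeR, limma-voom and DESeq2), with 0 members at an unadjusted p under 0.05. ATP5O had the smallest p in complex V, with an interaction of 0.14 on the log2 scale (SE 0.07, adjusted p = 0.922). The smallest in the other complexes were NDUFA6 at 0.15 (SE 0.09), SDHA at 0.11 (SE 0.08), UQCRFS1 at 0.17 (SE 0.09) and COX7B at 0.15 (SE 0.08), all with adjusted p-values above 0.92. Among the assembly factors, NDUFAF5 had the smallest, at -0.21 (SE 0.23, adjusted p = 0.976). The 95% interval of the interaction stayed within 1.2-fold for 44 of the 64 members of at least 50 CPM, and for the others the interval reached past that size. The 9 and 4 genes called lower under 1 treatment alone are therefore not shown to respond differently to knockdown with and without drug.

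Genes that work beside the nuclear subunits were read from 7 lists, to be set against the 16.2% of all genes tested that fell in DMSO and the 16.3% that were lower under drug. Of 19 tested genes of the citric acid cycle and pyruvate dehydrogenase, 11 fell in DMSO and 10 were lower under drug, or 57.9% and 52.6%, with medians of -0.24 and -0.21. IDH2, a mitochondrial isocitrate dehydrogenase, averaged 274 ± 12.7 CPM in knockdown and 383 ± 24.0 CPM in control DMSO libraries (log2 fold change -0.48, SE 0.06, adjusted p = 1.99e-07). PDHA1, the pyruvate dehydrogenase E1 alpha gene, averaged 79.1 ± 2.98 CPM in knockdown and 109 ± 6.95 CPM in control DMSO libraries (-0.47, SE 0.06, adjusted p = 9.37e-07). OGDH, the oxoglutarate dehydrogenase gene, was lower under drug (log2 fold change -0.63, SE 0.08, adjusted p = 2.8e-07). Of 14 electron carrier and feeder genes, 5 (35.7%) fell in DMSO, and 5 were lower and 1 higher under drug. CYCS, which encodes cytochrome c, averaged 353 ± 6.20 CPM in knockdown and 445 ± 16.9 CPM in control DMSO libraries (-0.33, SE 0.05, adjusted p = 2.24e-06) (SD, n = 3 in each group).

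Of 41 assembly factors outside the NDUFAF family, 10 fell and 1 rose in DMSO, and 9 were lower under drug, so that 24.4% and 22% were lower. ATPAF1, an assembly factor of the F1 part of ATP synthase, averaged 33.2 ± 2.33 CPM in knockdown and 49.7 ± 2.34 CPM in control DMSO libraries (SD, n = 3 each; log2 fold change -0.59, SE 0.08, adjusted p = 4.11e-07). COX14, a complex IV assembly factor, fell by 0.37 (SE 0.07, adjusted p = 5e-05), and COA3, which acts with COX14 on the mitochondrial COX1 subunit, rose by 0.24 (SE 0.08, adjusted p = 0.0174). Of 22 inner membrane carriers, import and inhibitory factors, 8 (36.4%) fell in DMSO, and 6 (27.3%) were lower and 2 higher under drug. The share under drug is near the 27.6% of all genes of at least 50 CPM. ATPIF1, the inhibitor protein of ATP synthase, averaged 105 ± 1.24 CPM in knockdown and 157 ± 3.95 CPM in control DMSO libraries (SD, n = 3 each; -0.57, SE 0.06, adjusted p = 2.11e-08) and its fall was not tested against that of the subunit genes.

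Among 9 tested regulators of mitochondrial gene expression, PPARGC1B and TFEB fell and PPARD rose in DMSO, and PPARGC1B and TFEB were lower under drug, 22.2% of the list in each. PPARGC1B (PGC-1 beta), a transcriptional coactivator known for raising mitochondrial genes, averaged 7.53 ± 0.607 CPM in knockdown and 14.4 ± 1.29 CPM in control DMSO libraries (SD, n = 3 each). Its log2 fold change was -0.93 (SE 0.13, adjusted p = 1.38e-06) in DMSO and -1.16 (SE 0.14, adjusted p = 1.22e-07) under drug. NRF1, GABPA and YY1, factors whose motifs are marked above, had log2 fold changes of -0.07, 0.18 and -0.09 in DMSO, with adjusted p-values of 0.555, 0.352 and 0.214. Of 10 genes of mitochondrial transcription and replication, 2 fell in DMSO, a share of 20% that is near that of all genes, and 3 (30%) were lower under drug. They included TFAM, which packages and transcribes mitochondrial DNA, at 130 ± 5.31 CPM in knockdown and 171 ± 3.09 CPM in control DMSO libraries (SD, n = 3 each; -0.39, SE 0.06, adjusted p = 8.7e-06).

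Of the 13 protein-coding genes of mitochondrial DNA, 4 (30.8%) fell in DMSO and 6 (46.2%) were lower under drug, led by MT-ND6 at -0.63 (SE 0.06, adjusted p = 4.07e-10) in DMSO. All 13 averaged more than 50 CPM. Of all genes of at least 50 CPM, 28.2% fell in DMSO, near the share here, and 27.6% were lower under drug. Under drug, MT-CO1 was higher than in DMSO, with log2 fold changes of 0.26 (SE 0.05, adjusted p = 0.00418) in knockdown cells and 0.61 (SE 0.05, adjusted p = 2.08e-09) in control cells. In knockdown cells under drug, MT-ND6 and MT-ATP8 were lower than in DMSO, by -0.44 (SE 0.06, adjusted p = 2.62e-05) and -0.39 (SE 0.07, adjusted p = 0.00153) on the log2 scale. MT-ND6 lies on the strand opposite its neighbours, so without a stated strand setting its reads may not have been told apart from theirs.

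The levels of some subunit genes are uncertain. In GENCODE release 29, 45 of the 75 subunit genes have a pseudogene named after them, and the sources used here do not say how reads that map to several places were counted. NDUFA7, NDUFS7, NDUFV2 and SDHD averaged under 10 CPM, and 2 of these 4 have such a pseudogene. Their adjusted p-values did not pass in any comparison, and NDUFV2 had the highest positive log2 fold change among subunit genes, 0.31 (SE 0.20, adjusted p = 0.261) in DMSO and 0.47 (SE 0.22, adjusted p = 0.11) under drug. Of the 8 tested relatives, copies and antisense rows, 0 passed in either knockdown comparison with edgeR, and 1 had an unadjusted p under 0.05 in DMSO. That row was the copy NDUFB1P1, with 2 to 31 counts per library. NDUFB2-AS1 is antisense to NDUFB2, and since the strand setting of the counting is not given in the sources used here, reads of the pair may not have been told apart.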

How the data were processed

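RNA from 12 libraries was made into 3′ tag libraries with Lexogen QuantSeq, per the labels' protocols. The authors deposited raw read counts per gene. Per the submitters' processing notes, the tools were HTSeq, HISAT2 and bcl2fastq 2.17.1.14, and the build was hg19, with no order or role stated. How strand and multi-mapping reads were handled, and with which annotation, is not given in the sources used here. Copies and antisense partners can therefore share reads.

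Counts were analysed in R 4.3.3 with edgeR 4.0.16: TMM scaling, filterByExpr with a minimum count of 10 and a minimum total of 15, and a quasi-likelihood fit of all 12 libraries in 4 groups (residual df 8, biological coefficient of variation 5.69%). P-values were adjusted by Benjamini-Hochberg over 12602 genes for each of 5 comparisons, at a threshold of 0.05. SEs were derived from the F statistic and are approximate. The steps were tested on simulated data. Alternatives used limma 3.58.1 (voom), DESeq2 1.42.0, other scalings and filters, and fits without each library. Figures were drawn with matplotlib 3.10.9 in Python 3.11.15.

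The genes and lists were chosen with earlier results of these data known. Named genes were, for each complex and comparison, up to 3 in each direction with the smallest adjusted p past the threshold, the smallest interaction p, the SDH genes, CYC1, and isoform pairs, and up to 2 in each list outside the symbol rule. Other genes named in the text were chosen after their values were seen. Replicate numbers were not used as pairs in the main fit, and the labels do not say whether same-numbered samples belong together.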

Additional observations from a re-analysis of the deposited data

How the results depend on the processing

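Under 23 alternatives, 12 of which leave out 1 library, no named call changed direction, and 26 of 41 named calls kept their side of the threshold under all but the 2-fold minimum. That minimum left 0 genes lower and 0 higher in both knockdown comparisons by its construction, since no called gene changed by that much. With library totals in place of TMM factors, the knockdown comparison under drug had 13 genes lower and 11 higher, and the summed ratios of knockdown to control were 1.001 for complex I, 1.011 for complex III, 0.959 for complex IV, 0.974 for complex V and 0.982 for all 5; the cause was not tested. Leaving out 1 library gave between 20 and 32 genes lower and between 0 and 3 higher in DMSO, between 20 and 27 lower and between 2 and 5 higher under drug, and between 0 and 1 higher for the drug effect in knockdown cells. The other scalings, filters and tools (DESeq2 size factors, no filter, 5 CPM in 3 libraries, ribosomal RNA rows taken out, only the groups compared, limma-voom, DESeq2) gave between 28 and 31 lower in DMSO and between 24 and 26 lower under drug.

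Same-numbered samples had correlations of their deviations between -0.192 and 0.124. Such weak correlations cannot tell whether these samples share a culture or batch, and the labels do not say. With a replicate block, 30 genes were lower and 3 higher in DMSO, and 26 lower and 3 higher under drug. With the replicate block fitted on only the groups of the comparison, an alternative chosen after seeing the data, 36 were lower and 5 higher in DMSO. Of genes under 50 CPM, where fewer counts stand behind each value, 1 of 26 was called lower in DMSO and 0 of 26 under drug, against 12.3% and 12.7% of all genes at that level; whether depth has a part in this was not tested.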
